A study of Mus musculus with 6 samples.

Results

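The 9 genes described here encode RNA-binding proteins that set how long cytokine mRNAs last: Zfp36, Zfp36l1, Zfp36l2, Zc3h12a, Rc3h1, Rc3h2, Elavl1, Khsrp and Hnrnpd. They were taken from the gene count table by name, 9 of its 54532 genes, and 9 of 9 were among the 14508 genes with enough counts to be tested. RNA was sequenced in bulk from cultured cells of the aorta of male wild-type mice, which the labels call endothelial. For 8 h the cells received either plain starvation medium (Vehicle, n = 3) or medium with 500 ng/mL lipopolysaccharide (LPS, n = 3), a bacterial cell wall component that innate immune receptors sense. The cells came from 3 isolations, each the source of a Vehicle and an LPS culture, so that isolation 1 gave Vehicle 1 and LPS 1, and so on. Comparing the groups asks how the transcripts of these regulators differ after LPS, at the single time sampled.

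Many cytokine and chemokine mRNAs carry AU-rich elements or short stem-loops in their 3′ untranslated region (3′ UTR). Zfp36 (tristetraprolin) and its relatives bind AU-rich elements and recruit the CCR4-NOT complex, which shortens the poly(A) tail, while Elavl1 (HuR) binds similar elements and protects the mRNA. Zc3h12a (Regnase-1) cuts mRNAs at stem-loops, and the Roquins, encoded by Rc3h1 and Rc3h2, bind stem-loops and also recruit CCR4-NOT. These proteins are controlled in large part by phosphorylation, cleavage and degradation, which mRNA levels do not measure.

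Total counts per library lay between 16509197 and 25082714, and 3 counts corresponded to 0.117 to 0.188 CPM (reads of a gene relative to its library's effective size, by the TMM method). The labelled cell type did not match its defining markers: Cldn5 had no count in any library, Cdh5 had at most 2 counts and Pecam1 at most 17, and the sum of the 14 endothelial markers, 354 to 362 CPM in Vehicle and 339 to 347 CPM under LPS, was nearly all Eng and Flt1. Of the endothelial list 5 genes were tested, of which 0 were higher and 1 was lower. The 8 fibroblast markers summed to 6948 to 8197 CPM in Vehicle and 4469 to 6111 CPM under LPS (1 higher and 4 lower), and the 7 smooth muscle markers to 415 to 433 and 464 to 583 CPM (5 tested, 1 higher). The 8 macrophage and leukocyte markers summed to 5.36 to 6.18 and 6.15 to 7.63 CPM (2 tested, 0 called), with Ptprc and Adgre1 at 0. The part of these differences in the results was not tested, and in bulk RNA fewer cells of a type and less RNA per cell cannot be told apart. Over all tested genes 24.9% were called higher and 24.4% lower. Calls also went with transcript length, as set out below.

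After LPS, Zc3h12a, Hnrnpd and Elavl1 were higher, by factors of 1.66, 1.44 and 1.40, and Rc3h1, Khsrp, Rc3h2 and Zfp36l2 were lower. Zfp36 and Zfp36l1, both immediate-early type genes in many cells, did not pass the test. A gene was called when the edgeR quasi-likelihood test gave an adjusted p below 0.05; of the 9 genes 7 were called, where 49.3% of all tested genes were. Of these, 3 were called higher (24.9% of all tested genes) and 4 lower (24.4%). With the isolation as a block in the model the same 3 and 4 genes were called, where 25.5% of all tested genes were called higher and 25.5% lower (51% in all). In 9 of 9 genes the Vehicle and LPS values did not overlap, which was also so for 61.9% of all tested genes. Calls were thus common in this comparison, and the counts among the 9 genes are to be read against that.

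**Figure D1:**
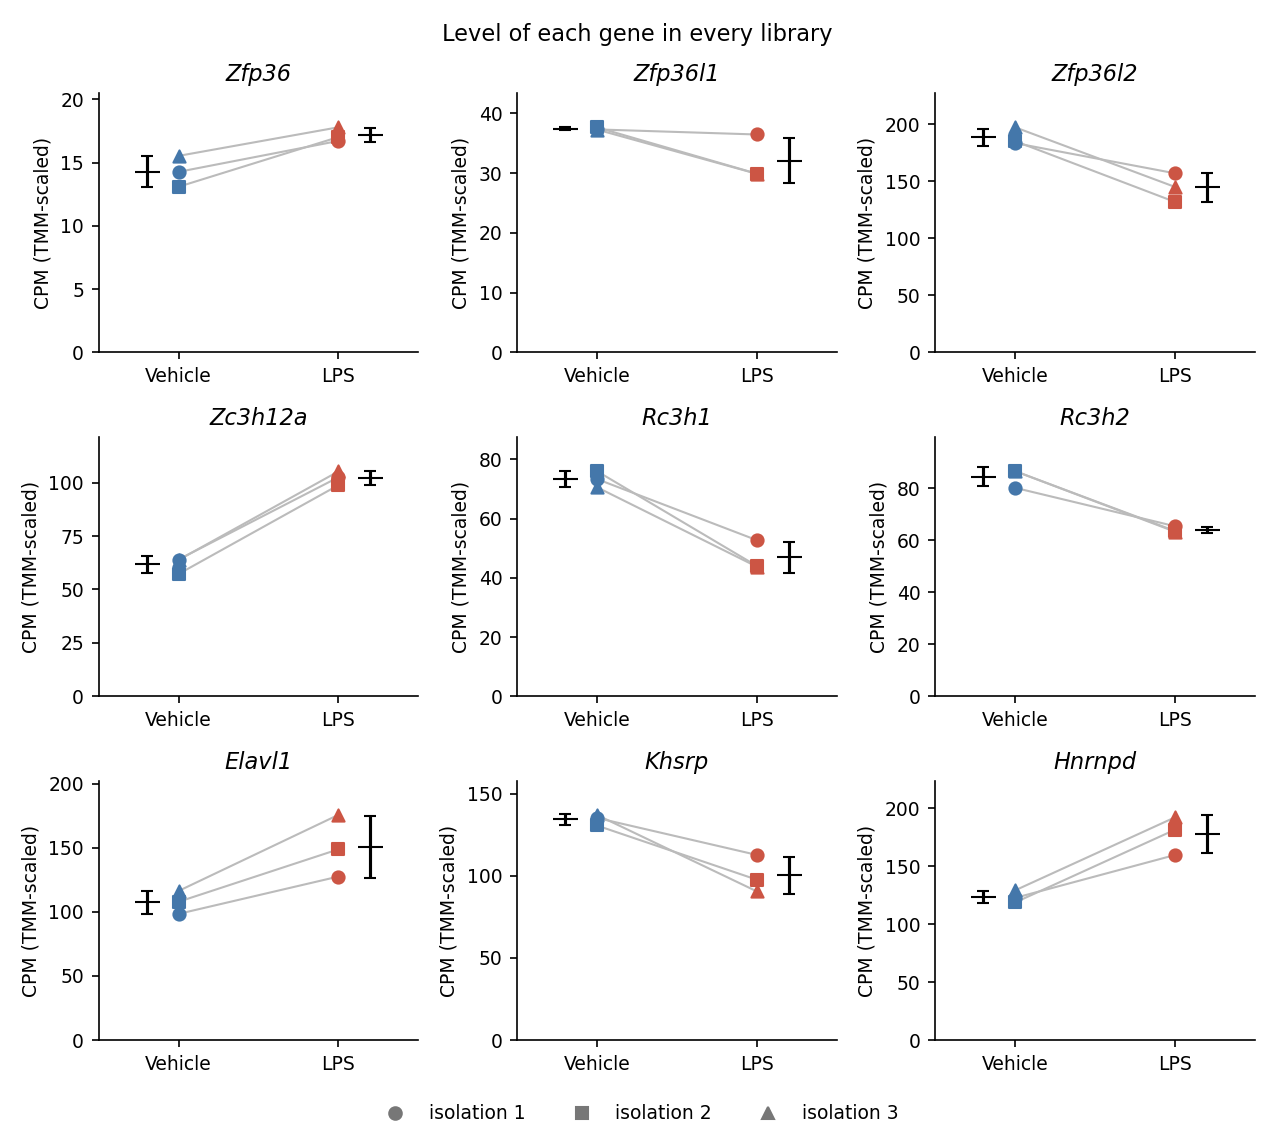
Level of each of the 9 genes in the 6 libraries, in CPM on axes that start at 0, with marker shapes for the 3 isolations, a line joining the cultures of an isolation, and the mean ± SD of each group at the side. In each panel the 3 LPS points lie on 1 side of the 3 Vehicle points, closest for Zfp36l1, whose LPS 1 value of 36.4 CPM is just under the lowest Vehicle value of 37.3 CPM.

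The length of a transcript went with the direction of change across the whole table, and this bears on several of the 9 genes. Slopes were taken against each gene's mean over the Vehicle libraries, and for a Vehicle library over the other Vehicle libraries. Log2 levels in LPS 1, 2 and 3 changed by −0.193, −0.318 and −0.364 with each doubling of transcript length. With Vehicle as the reference, the slopes in Vehicle 1, 2 and 3 were 0.00993, 0.0295 and −0.0395. In the length class of 1450 tested genes with the longest transcripts (6658 bases and more), which holds Rc3h1, Rc3h2 and Hnrnpd, 72.1% were called lower and 2.83% higher. In the class that holds Elavl1 (5118 to 6654 bases) 57.0% were called lower and 5.25% higher, whereas in the class of Zfp36, Zfp36l1 and Zc3h12a (2717 to 3197 bases) 10.5% were lower and 24.7% higher. A second fit therefore carried an offset for transcript length, a smooth curve fitted in each library, and its values are given beside the main ones. With the offset 6 of the 9 genes were called (35.4% of all tested genes), 4 higher (22%) and 2 lower (13.4%). Of the fibroblast markers called lower without the offset, Pdgfra was still called with it (−0.37, edgeR adjusted p = 0.0134). Col1a1 (−0.09, edgeR adjusted p = 0.453), Col1a2 (−0.10, edgeR adjusted p = 0.416) and Pdgfrb (−0.15, edgeR adjusted p = 0.122) were not. The origin of the length trend was not tested.

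**Figure D2:**
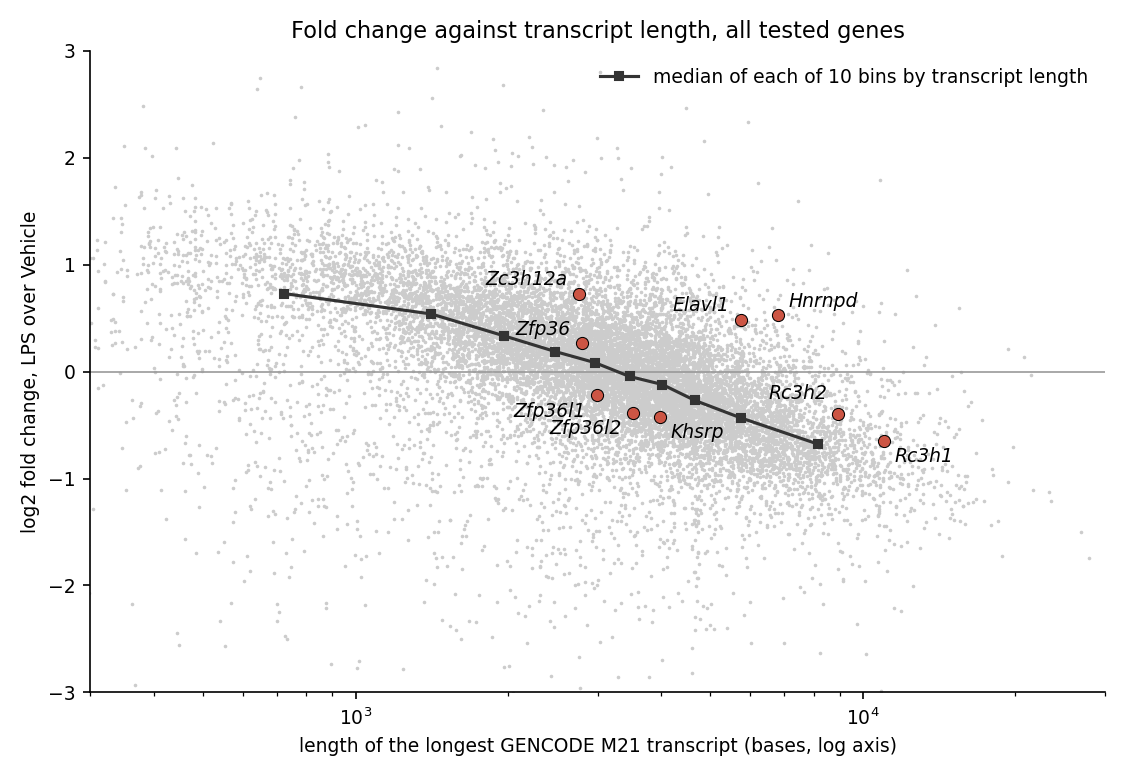
Log2 fold change (LPS over Vehicle) of the tested genes against the length of their longest annotated transcript on a log axis, with the 9 genes named and a line joining the medians of the 10 length classes. The class medians run from 0.73 for the shortest to −0.68 for the longest transcripts, with Rc3h1 close to the line and Elavl1 and Hnrnpd far above it; points outside the axes are not drawn.

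**Figure D3:**
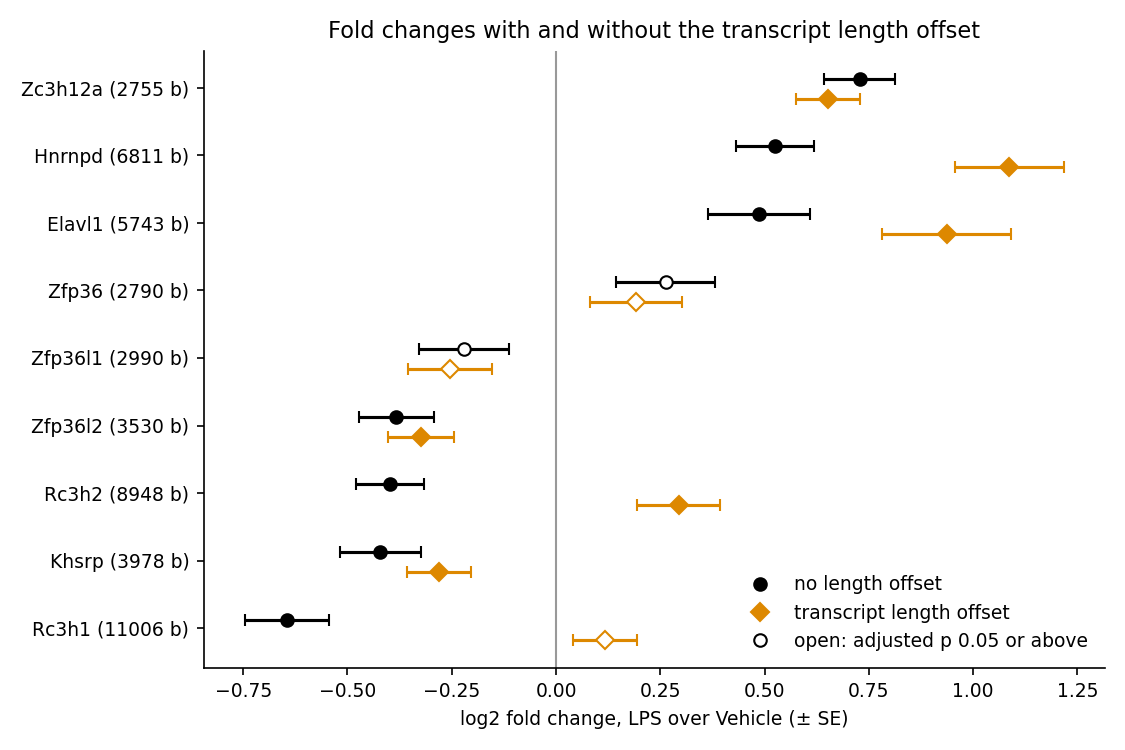
Log2 fold change of each gene without and with the transcript length offset, with bars of 1 standard error and open symbols where the adjusted p was 0.05 or above. Zc3h12a, Elavl1 and Hnrnpd are above 0 in both fits, Zfp36l2 and Khsrp below 0 in both, and Rc3h1 and Rc3h2 lie below 0 in the first and above 0 in the second.

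Zfp36 encodes tristetraprolin, the protein that destabilises Tnf and many other AU-rich mRNAs (ENSMUSG00000044786, GRCm38 chr7:28376784-28380253, minus strand). It had 14.3, 13.1 and 15.5 CPM in Vehicle 1, 2 and 3, and 16.7, 17.0 and 17.8 CPM in LPS 1, 2 and 3. The LPS values were all above the Vehicle values, with a gap between the highest Vehicle and the lowest LPS value that was about the size of the Vehicle SD. The means were 14.3 ± 1.22 and 17.2 ± 0.555 CPM (SD, n = 3 each), a log2 fold change of 0.26 (SE 0.119) that missed the threshold (edgeR adjusted p = 0.0929, and 0.204 with the length offset). In the 21 other settings tried, its log2 fold change lay between 0.14 and 0.33 and it was called in 0 of them. An annotated antisense transcript, Gm44710, overlaps Zfp36 and had 4 to 30 counts per library, which cannot be told apart from Zfp36 reads without the strand setting.

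Zfp36l1 encodes a close relative with the same target preference (ENSMUSG00000021127, chr12:80107754-80113013, minus strand). Its level was 37.3, 37.6 and 37.3 CPM in Vehicle 1, 2 and 3, and 36.4, 29.9 and 29.9 CPM in LPS 1, 2 and 3. The LPS library of isolation 1 stood just under the Vehicle values, and those of isolations 2 and 3 were further below. The fitted difference was −0.22 on the log2 scale (SE 0.108, edgeR adjusted p = 0.116), and −0.25 with the length offset (SE 0.10, edgeR adjusted p = 0.0713). Without LPS 1 the gene was called lower, at −0.33 (edgeR adjusted p = 0.00616).

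Zfp36l2, another relative, had the highest CPM of the 9 genes in Vehicle and was lower after LPS (ENSMUSG00000045817, chr17:84183931-84187947, minus strand). Under LPS the means of Hnrnpd and Elavl1 exceeded its mean, though in LPS 1 Elavl1 was lower, at 127 against 157 CPM. Zfp36l2 had 183, 185 and 197 CPM in Vehicle 1, 2 and 3, and 157, 132 and 145 CPM in LPS 1, 2 and 3. Each LPS culture was below the Vehicle culture of its own isolation. The mean fell from 189 ± 7.55 to 145 ± 12.5 CPM (SD, n = 3 each), equal to −0.38 on the log2 scale (SE 0.0903, edgeR adjusted p = 0.00684). With the length offset it was −0.32 (SE 0.0786, edgeR adjusted p = 0.00986).

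Expressed per kilobase of the deposited gene length, the sum of the 3 Zfp36 family transcripts was 70.1 ± 2.40 CPM per kilobase in Vehicle and 56.7 ± 4.62 under LPS (SD, n = 3 each). In the make-up of that sum the groups did not overlap for Zfp36 and Zfp36l2, and overlapped for Zfp36l1. Zfp36 made up 6.0, 5.48 and 6.14% of it in Vehicle 1, 2 and 3, and 7.83, 9.38 and 9.12% in LPS 1, 2 and 3. Zfp36l2 made up 76.3 ± 0.467% in Vehicle and 72.3 ± 0.806% under LPS, and Zfp36l1 17.9 ± 0.653% and 18.9 ± 1.04%. The log2 ratio of Zfp36 to Zfp36l2 was higher by 0.65 under LPS, that of Zfp36 to Zfp36l1 by 0.50, and that of Zfp36l1 to Zfp36l2 by 0.16. In all 3 ratios the groups did not overlap, and the exact 2-sided permutation p was 0.1 for each, the smallest that 3 against 3 libraries can give (0.1 also after adjustment over the 4 ratios computed, which include that of Rc3h1 to Rc3h2).

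The family binds best to the nonamer TTATTTATT (with U for T in the RNA), and each of the 3 genes holds that nonamer 1 time in its own longest annotated 3′ UTR. The sites are shown because they are the element through which these proteins act, and are set beside a site of a target that rose, the chemokine gene Cxcl2. Letters are those of the GENCODE M21 transcripts, 5′ to 3′ on the coding strand, with the nonamer in capitals.
Zfp36: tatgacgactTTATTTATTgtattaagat
Zfp36l1: aactgttggaTTATTTATTttagaaattc
Zfp36l2: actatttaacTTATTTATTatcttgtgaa
Cxcl2: gagagttcacTTATTTATTtatctatgta
They lie at chr7:28376951-28376979, chr12:80108167-80108195 and chr17:84184914-84184942 (minus strand) and, for Cxcl2, chr5:90905316-90905344 (plus strand), all in GRCm38. The nonamer occurs in 8.44% of the 12491 tested genes with an annotated 3′ UTR, and its pentamer core ATTTA in 70.9%. Cxcl2 holds 4 nonamers. A match is a description of the letters, and binding was not measured.

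Khsrp encodes KSRP, another protein that speeds the decay of AU-rich mRNAs (ENSMUSG00000007670, chr17:57021051-57031522, minus strand), and was lower after LPS. It had 135, 131 and 137 CPM in Vehicle 1, 2 and 3, and 113, 97.7 and 90.6 CPM in LPS 1, 2 and 3. The groups were well apart, with LPS 1 nearest to Vehicle. The mean fell from 134 ± 3.33 to 100.4 ± 11.3 CPM (SD, n = 3 each), equal to −0.42 on the log2 scale (SE 0.0964, edgeR adjusted p = 0.00602). With the length offset it was −0.28 (SE 0.0768, edgeR adjusted p = 0.0167). Its 3′ UTR of 1642 bases holds 1 ATTTA pentamer and no nonamer.

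Hnrnpd encodes AUF1, made as several protein isoforms that mostly promote decay of AU-rich mRNAs (ENSMUSG00000000568, chr5:99955935-99978938, minus strand), and was higher after LPS. Its level was 123, 119 and 129 CPM in Vehicle 1, 2 and 3, and 160, 181 and 192 CPM in LPS 1, 2 and 3. The lowest LPS value was above the highest Vehicle value, and LPS 1 was again the LPS library nearest to Vehicle. The mean rose from 123 ± 5.27 to 178 ± 16.6 CPM (SD, n = 3 each), or by 0.52 on the log2 scale (SE 0.0928, edgeR adjusted p = 0.00201). In the fit with the length offset it was 1.09 (SE 0.131, edgeR adjusted p = 0.00103). Gene counts do not separate the isoforms.

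Elavl1 encodes HuR, the member of the group known for stabilising AU-rich mRNAs (ENSMUSG00000040028, chr8:4285382-4325413, minus strand), and it too was higher after LPS. It had 98.4, 108 and 116 CPM in Vehicle 1, 2 and 3, and 127, 149 and 176 CPM in LPS 1, 2 and 3. In both groups the order of the isolations was the same, and each LPS culture exceeded each Vehicle culture. The mean rose from 107 ± 8.95 to 151 ± 24.1 CPM (SD, n = 3 each), or by 0.49 on the log2 scale (SE 0.122, edgeR adjusted p = 0.00922). With the length offset it was 0.94 (SE 0.154, edgeR adjusted p = 0.00208). Without Vehicle 1 it was 0.42 and just past the threshold (edgeR adjusted p = 0.0505), and the chemokine gene Ccl25, which overlaps Elavl1 on the opposite strand, had 163 to 270 counts that cannot be assigned without the strand setting.

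The Elavl1 3′ UTR holds more nonamers than those of the other members, though not more pentamers (Rc3h2 has 25 and Rc3h1 20). Its 4218 bases hold 17 ATTTA pentamers and 8 nonamers, with all 8 nonamers inside 55 bases towards its end (chr8:4285752-4285806). Of the 12491 tested genes with a 3′ UTR, 8 genes (0.0641%) hold 8 or more nonamers. The start of this run is shown because it repeats the letters found in Csf2, the gene of the growth factor GM-CSF, whose AU-rich element is a classical model of mRNA decay. Overlapping nonamers are in capitals.
Elavl1: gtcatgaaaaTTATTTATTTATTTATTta
Csf2: ttttaaatatTTATTTATTTATTTATTta
The sites lie at chr8:4285788-4285816 and chr11:54247329-54247357 (GRCm38, minus strand). The 3′ UTR of Csf2 has 317 bases with 4 nonamers, and Csf2 rose by 3.69 on the log2 scale (edgeR adjusted p = 0.00104). It had 0.337, 0.209 and 0.548 CPM in Vehicle 1, 2 and 3, near the counting floor, so the size of the rise is uncertain. In LPS 1, 2 and 3 it had 4.01, 3.94 and 6.85 CPM.

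Zc3h12a encodes Regnase-1, an endoribonuclease that cuts Il6 and other mRNAs at stem-loops and limits inflammatory cytokines (ENSMUSG00000042677, chr4:125118423-125127840, minus strand). Of the 9 genes it had the largest log2 fold change in the main fit. It had 64.0, 57.2 and 63.8 CPM in Vehicle 1, 2 and 3, and 103, 98.8 and 105 CPM in LPS 1, 2 and 3. The isolations differed little within each group, and the groups were far apart. The mean rose from 61.7 ± 3.85 to 102 ± 3.23 CPM (SD, n = 3 each), or by 0.73 on the log2 scale (SE 0.0855, edgeR adjusted p = 0.00113). With the length offset it was 0.65 (SE 0.0764, edgeR adjusted p = 0.000947), and within isolations 1, 2 and 3 the log2 ratio of LPS to Vehicle was 0.68, 0.79 and 0.72.

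Rc3h1 encodes Roquin-1 (ENSMUSG00000040423, chr1:160906418-160974978, plus strand), a repressor of mRNAs such as Icos and Tnf. It had 73.3, 76.0 and 70.6 CPM in Vehicle 1, 2 and 3, and 52.7, 44.0 and 43.8 CPM in LPS 1, 2 and 3. The groups did not overlap, and LPS 1 lay between Vehicle and the other LPS libraries. The mean fell from 73.3 ± 2.71 to 46.8 ± 5.09 CPM (SD, n = 3 each), equal to −0.65 on the log2 scale (SE 0.101, edgeR adjusted p = 0.00148). Its longest transcript has 11006 bases. Once the length offset was in the model its log2 fold change was 0.12 (SE 0.0768, edgeR adjusted p = 0.259), so the fall was no longer called and the sign turned.

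Rc3h2 encodes Roquin-2, which overlaps with Roquin-1 in function (ENSMUSG00000075376, chr2:37370069-37422903, minus strand). Its level was 80.2, 86.6 and 86.6 CPM in Vehicle 1, 2 and 3, and 65.4, 63.6 and 63.3 CPM in LPS 1, 2 and 3. The LPS libraries were close to each other and below each Vehicle library. The mean fell from 84.5 ± 3.71 to 64.1 ± 1.13 CPM (SD, n = 3 each), equal to −0.40 on the log2 scale (SE 0.0815, edgeR adjusted p = 0.00358). With the length offset, on a longest transcript of 8948 bases, it was 0.29 (SE 0.0999, edgeR adjusted p = 0.0413), a call in the other direction. For the Roquin genes the direction of the difference therefore depended on how transcript length was treated. Per kilobase of the deposited gene length, the log2 ratio of Rc3h1 to Rc3h2 was lower under LPS by 0.25 (0.59 ± 0.0844 in Vehicle and 0.34 ± 0.127 under LPS, exact permutation p = 0.1). That ratio carries no length offset. Per kilobase of the longest transcript Rc3h1 was below Rc3h2, at 6.66 against 9.44 CPM per kilobase in Vehicle and 4.26 against 7.17 under LPS.

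Letters that could pair into a stem-loop were also sought in Rc3h1 and Rc3h2 themselves, and folding and binding were not measured. The 3′ UTRs were searched for a perfect stem of 5 pairs with a loop of 3 bases, TAT or TGT, and held 4 and 2 of them. In Rc3h1 the hairpins that start at bases 2002 and 2005 overlap. These 3′ UTRs have 7181 and 5331 bases, against a median of 1222 in tested genes, which gives more room for matches. A pair of hairpin sequences is shared by both genes: ATATATATTATAT, which 46 of the tested genes (0.368%) hold, and the rarer one shown with its 13 bases in capitals. Zc3h12a holds 1 hairpin of another sequence.
Rc3h1: agccaataACTTCTGTGAAGTtgcctttt
Rc3h2: tttaattaACTTCTGTGAAGTtgtttact
Zc3h12a: ggcgagatTTAAATATTTTAAatgaaaaa
The sites lie at chr1:160971653-160971681 (plus strand), chr2:37373802-37373830 (minus strand) and chr4:125118656-125118684 (minus strand) in GRCm38. The sites of Rc3h1 and Rc3h2 are identical at 20 of 29 bases, and the hairpin shown for both occurs in 6 (0.048%) of the 12491 tested genes with a 3′ UTR. Hairpins of any such sequence occur in 12.6% of them, so holding 1 is not rare. Each Roquin gene also holds 1 nonamer.
Rc3h1: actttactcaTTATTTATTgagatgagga
Rc3h2: caaagacattTTATTTATTttactctgta
These lie at chr1:160970043-160970071 (plus strand) and chr2:37373287-37373315 (minus strand).

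Levels were compared between the genes per kilobase of the deposited gene length. In Vehicle the order was Zfp36l2 with 53.5 ± 2.14 CPM per kilobase, Khsrp with 31.1 ± 0.770, Zc3h12a with 21.4 ± 1.34 and Hnrnpd with 16.8 ± 0.716. Zfp36l1 with 12.5 ± 0.0705, Elavl1 with 10.4 ± 0.863, Rc3h1 with 6.48 ± 0.240, Rc3h2 with 4.30 ± 0.189 and Zfp36 with 4.12 ± 0.352 followed (SD, n = 3). Of neighbours in that order, Rc3h2 and Zfp36 had overlapping values and the others did not. Zfp36, the founding gene of the family, was thus the lowest or next to lowest of the 9. Under LPS the order was Zfp36l2 with 41.0 ± 3.55, Zc3h12a with 35.5 ± 1.12, Hnrnpd with 24.2 ± 2.25, Khsrp with 23.2 ± 2.62 and Elavl1 with 14.5 ± 2.33 CPM per kilobase. Zfp36l1 with 10.7 ± 1.27, Zfp36 with 4.95 ± 0.160, Rc3h1 with 4.14 ± 0.450 and Rc3h2 with 3.27 ± 0.0578 came after, and among neighbours the values of Hnrnpd and Khsrp overlapped. Zc3h12a was below Khsrp in Vehicle and above it under LPS. With the longest transcript as the length the order changed for Elavl1 and Rc3h2. Elavl1 was then at 18.7 CPM per kilobase in Vehicle and 26.2 under LPS, with values that overlapped those of Hnrnpd in both groups. Rc3h2 was at 9.44 in Vehicle and 7.17 under LPS, which put it above Rc3h1 and Zfp36 in both groups. The values of Zfp36l2 and Zc3h12a, and those of Hnrnpd and Khsrp, overlapped under LPS on that scale.

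**Figure D4:**
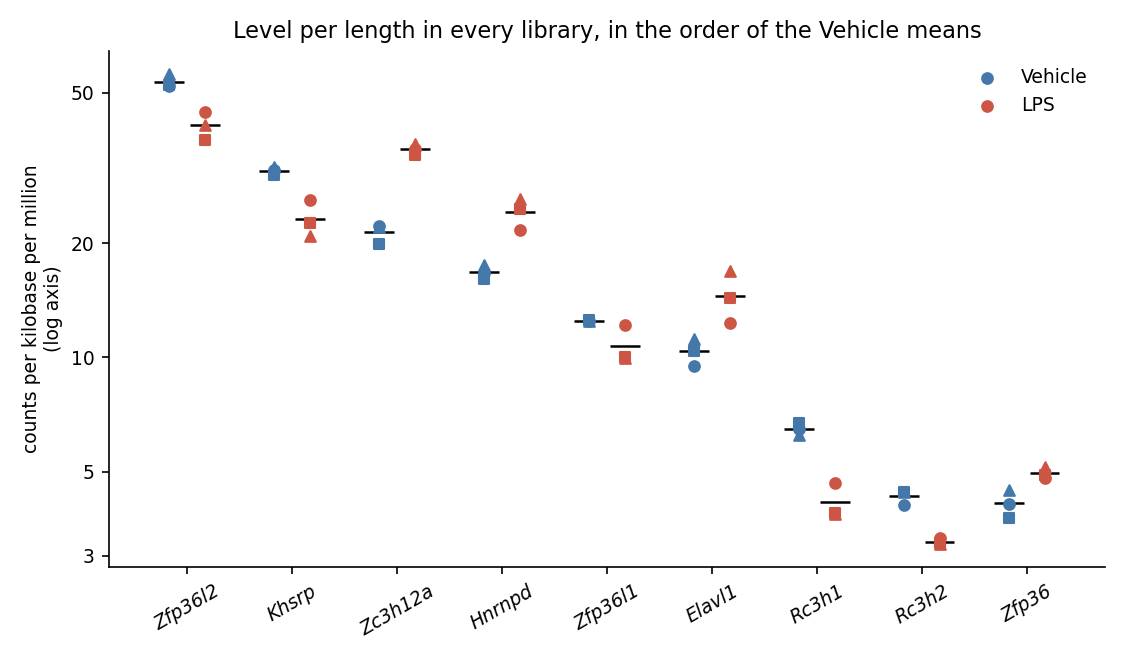
Level per kilobase of the deposited gene length (CPM per kilobase, log axis) of each gene in Vehicle and LPS, with 1 point per library, marker shapes for the isolations and bars for the means. Zfp36l2 is highest in both groups, and Zc3h12a passes Khsrp under LPS.

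In a test of the difference between isolations, 0 of the 9 genes were called, with edgeR adjusted p from 0.540 for Elavl1 to 0.984 for Rc3h2. That test called 1 of all 14508 genes (0.00689%), so it does not show that the isolations were alike. The direction of the LPS to Vehicle difference was the same in all 3 isolations for each of the 9 genes. That follows from the lack of overlap between the groups and adds nothing to it. For Zfp36 the log2 ratio was 0.23, 0.38 and 0.20 in isolations 1, 2 and 3, and for Zfp36l1 it was −0.03, −0.33 and −0.32. Without isolation 2, which leaves 2 libraries per group, 0 of the 9 genes were called by edgeR (adjusted p from 0.0644 for Zc3h12a upwards among the 7 called with all libraries), and 6 had an unadjusted p below 0.05. All tested genes then gave 8 higher and 0 lower calls, with 2587 higher and 2469 lower at an unadjusted p below 0.05.

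Among genes of the deadenylation and decapping machinery, calls went in both directions, as they did over all tested genes. Over all tested genes, 24.9% were called higher and 24.4% lower, and with the length offset 22% and 13.4%, and the counts of each list below are set against these shares. Of 18 genes of the CCR4-NOT and other deadenylases and their recruiters, 4 rose and 6 fell, with a median log2 fold change of −0.10 where all tested genes had −0.003; with the length offset 3 rose and 1 fell, with a median of 0.04 where all tested genes had 0.05. Btg1, an antiproliferative protein that recruits the deadenylase, rose by 0.59 on the log2 scale (edgeR adjusted p = 0.00265; 0.92 and 0.00131 with the length offset), from 121 ± 6.55 to 181 ± 26.6 CPM (SD, n = 3 each). Cnot1, the scaffold of the complex, fell by 0.80 (edgeR adjusted p = 0.00144), from 177 ± 8.30 to 102 ± 15.8 CPM, and with the length offset had −0.14 (edgeR adjusted p = 0.120). Cnot7, a catalytic subunit and the most abundant gene of the list without a call, had −0.02 (edgeR adjusted p = 0.896). Of 12 genes of decapping and decay from the 5′ end 2 rose and 6 fell (median −0.18), and with the length offset 2 and 3 (median −0.01). Lsm1, part of the ring that binds deadenylated ends, rose by 0.66 (edgeR adjusted p = 0.00409), and the exonuclease Xrn1 fell by 1.06 (edgeR adjusted p = 0.00143; −0.32 and 0.0191 with the length offset). Edc4, a decapping enhancer, had −0.08 (edgeR adjusted p = 0.407).

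Most exosome genes rose in both fits. Of 14 genes of the exosome and its helpers, which degrade RNA from the 3′ end, 10 rose (24.9% of all tested genes did) and 1 fell (24.4%), with a median log2 fold change of 0.61. In the offset fit 10 rose (22% of all) and 0 fell (13.4%), with a median of 0.44. The 9 Exosc genes of the list were all among those that rose, from Exosc10 with 0.31 to Exosc4 with 0.89. Exosc4, a subunit of the exosome ring, had 21.8, 18.5 and 22.0 CPM in Vehicle 1, 2 and 3, and 28.5, 37.3 and 49.6 CPM in LPS 1, 2 and 3 (edgeR adjusted p = 0.00384). Its groups did not overlap. Ttc37, a scaffold of the Ski complex that feeds RNA to the cytoplasmic exosome, fell by 0.76 (edgeR adjusted p = 0.00178; −0.21 and 0.0646 with the length offset). The Ski helicase gene Skiv2l had −0.04 (edgeR adjusted p = 0.739). Dis3 and Dis3l of the same list were not called in either fit. Dis3 had −0.06 (edgeR adjusted p = 0.659; 0.30 and 0.0792 with the length offset) and Dis3l −0.22 (edgeR adjusted p = 0.0853; −0.13 and 0.269).

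**Figure D5:**
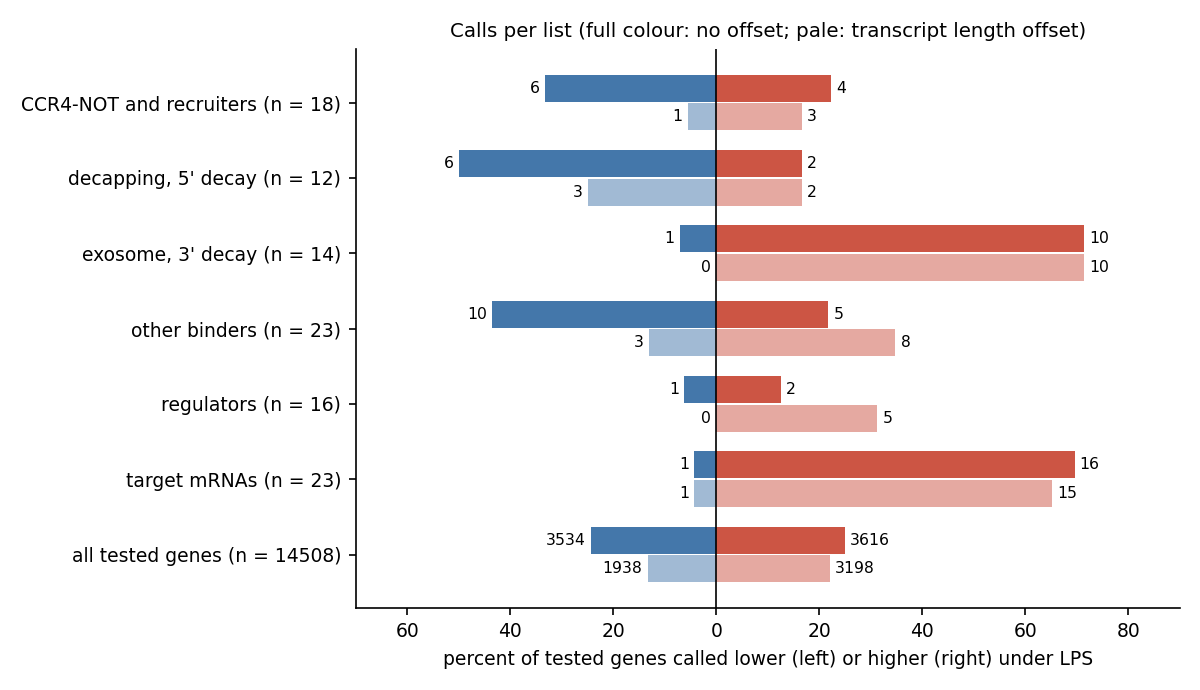
Percent of the tested genes of each of 6 lists of connected genes, and of all tested genes, called lower (bars to the left) or higher (bars to the right) under LPS, with the number of genes at each bar, in full colour for the main fit and pale for the transcript length offset. The exosome list (10 of 14 higher) and the target list (16 of 23 higher) reach furthest to the right, and the deadenylase, decapping and other binder lists have fewer lower calls with the offset.

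Among 27 other AU-rich element and stem-loop binders and relatives of the 9 genes, 23 were tested, of which 5 rose and 10 fell (median −0.06), where 24.9% of all tested genes rose and 24.4% fell. With the length offset 8 rose and 3 fell (median 0.17), where 22% of all rose and 13.4% fell. Ncl, nucleolin, which binds AU-rich mRNAs besides its role in ribosome synthesis, rose by 0.69 (edgeR adjusted p = 0.00211; 1.36 and 0.00105 with the length offset), from 787 ± 57.7 to 1265 ± 185 CPM (SD, n = 3 each). The offset value rests on its longest annotated transcript of 8202 bases, and which transcript was expressed was not determined. Zc3h12c, a relative of Zc3h12a, fell by 1.12 (edgeR adjusted p = 0.00209; −0.59 and 0.0135 with the length offset), from 16.0 ± 1.45 to 7.35 ± 2.06 CPM. Zc3h12a and Zc3h12c were thus called in opposite directions in both fits. Of the other relatives, Zc3h12b was called lower in the main fit (−0.71, edgeR adjusted p = 0.0102). With the length offset Zc3h12b had −0.15 (edgeR adjusted p = 0.515). Zc3h12d was not called in the main fit (0.47, edgeR adjusted p = 0.396) or with the offset (0.64, edgeR adjusted p = 0.293). Hnrnpdl, the close relative of Hnrnpd, had 0.23 and missed the threshold (edgeR adjusted p = 0.0511).

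Of 16 genes that act on the 9 proteins, 2 rose and 1 fell, and 13 were not called (median 0.02), where 49.3% of all tested genes were called. In the offset fit 5 rose and 0 fell (median 0.09), where 35.4% of all were called. Mapkapk2, the kinase that phosphorylates tristetraprolin and so restrains it, rose by 0.31 (edgeR adjusted p = 0.00960), from 176 ± 4.16 to 218 ± 8.30 CPM (SD, n = 3 each). Malt1, the protease that cleaves Regnase-1 and Roquins in lymphocytes, fell by 0.57 (edgeR adjusted p = 0.0129; −0.06 and 0.751 with the length offset). Ywhaz, an adaptor of the family that holds phosphorylated tristetraprolin, had 0.19 (edgeR adjusted p = 0.0833), and the offset fit called it higher, at 0.21 (edgeR adjusted p = 0.0491).

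Of 31 genes whose mRNAs are known targets of these proteins, mostly from immune cells, 23 were tested, of which 16 rose and 1 fell, where 24.9% of all tested genes rose and 24.4% fell, with a median log2 fold change of 0.65. In the offset fit 15 rose and 1 fell (median 0.59), where 22% of all rose and 13.4% fell. Cxcl3, a neutrophil attractant, had the largest log2 fold change of the list, 3.74 (edgeR adjusted p = 0.00103), at 0.337, 0.209 and 0.196 CPM in Vehicle 1, 2 and 3 and 2.50, 3.25 and 4.18 CPM in LPS 1, 2 and 3. Its Vehicle values were close to the counting floor. Cxcl3 and Csf2 had enough counts to be tested only through their LPS libraries, so their place among the tested genes depended on their rise. Ccnd1, which encodes cyclin D, fell by 0.65 (edgeR adjusted p = 0.00257) and had 272, 253 and 269 CPM in Vehicle 1, 2 and 3, and 202, 160 and 143 CPM in LPS 1, 2 and 3. Hif1a, the most abundant target without a call, had −0.06 (edgeR adjusted p = 0.600), and the offset fit called it higher, at 0.22 (edgeR adjusted p = 0.0434). These lists were chosen with results of these data known, and many targets are genes that LPS is known to induce.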

How the data were processed

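The deposited table gave each gene's raw, unnormalised counts and its length in bases, per the file headers. The submitters' processing notes name HISAT2 and the genome build GRCm38 (mm10). How reads were counted, with which strand setting and which annotation release, is not given in the sources used here. GENCODE M21 held 99.774% of the gene IDs, 98.106% with the same coordinates, and 27 gene names turned into dates were restored from their IDs. The LPS columns name the treatment; columns M1 to M3 were taken as Vehicle 1 to 3 by elimination.

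LPS was compared with Vehicle by edgeR 4.0.16 under R 4.3.3 (TMM, filterByExpr by group, 2-sided quasi-likelihood F-test, Benjamini-Hochberg adjustment over 14508 genes, threshold 0.05). The labels give each number as 1 cell isolation, so the numbers pair the libraries; deviations from group means correlated by 0.0958, −0.0450 and 0.206 within isolations 1, 2 and 3, across 14508 genes that are not independent replicates. The main fit was unpaired. Alternatives were the replicate block, DESeq2 1.42.0 and its size factors, limma-voom (limma 3.58.1), library sizes alone, other filters, a threshold of 0.01, leaving out each library or isolation, and offsets. The length offset was a natural spline (5 degrees of freedom) of log2 deviations over log2 length of the longest GENCODE M21 transcript, per library. A fit without LPS 2 and LPS 3, and the grouping by nonamers, were added after seeing the data. SEs belong to fitted log2 fold changes and SDs to libraries of a group. A floor of 3 counts covers counting error only. Scripts were tested on simulated data.

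Members, lists and tests were chosen with earlier results of these data known. Named are the 9 genes. Per list, the called gene with the largest change in each direction and the most abundant gene without a call are named. Exosc10, Dis3, Dis3l, Mapkapk2, Csf2, Cxcl2, Zc3h12b, Zc3h12d and the fibroblast markers called lower were named after their values were seen. For each gene the 2 protein-coding genes of at least 5 CPM nearest in pattern were also named. A few genes that these rules name are not reported here. 3′ UTRs were read from GENCODE M21 and promoters from RefSeq (GRCm38.p6).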

Additional observations from a re-analysis of the deposited data

How the results depend on the processing

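The replicate block changed no call among the 9 genes, and over all genes gave 3706 higher and 3693 lower calls against 3616 and 3534. At an adjusted p of 0.01 there were 2309 higher and 2223 lower calls, with the same 3 higher and 4 lower among the 9 genes. Lower calls over all genes numbered 1938 with the transcript length offset, 2284 with the deposited gene length, 2208 with the transcript length offset and the replicate block, and 1979 with length and GC content; among the 9 genes 2 were lower with the transcript length offset and 2 with length and GC. Rc3h1 turned to 0.12 with the transcript length offset, 0.12 with that offset and the replicate block, and 0.17 with length and GC, and was −0.12 with the deposited length (edgeR adjusted p = 0.241). Rc3h2 turned to 0.29, 0.29 and 0.45 in the same 3 fits and to 0.35 with the deposited length. Zfp36l1 was called lower with the deposited length (−0.35, edgeR adjusted p = 0.0287) and with the transcript length offset and block (−0.26, edgeR adjusted p = 0.0476). Leaving out single libraries or isolations gave 8 to 4362 higher and 0 to 4463 lower calls over all genes, and 0 to 3 higher and 0 to 5 lower among the 9; the lowest values came without isolation 2 and the cause was not tested. Without isolation 3, Zfp36l2 (edgeR adjusted p = 0.0532) and Khsrp (0.0559) were not called, and without isolation 1 Zfp36l1 was (0.0118). Without LPS 2 and LPS 3, 2033 higher and 2118 lower calls were left, and Elavl1 (0.0801) and Khsrp (0.0608) were not called; the lone LPS library is there assumed to vary like the Vehicle group. At 13.1 to 197 CPM, the counts of the 9 genes were far above the floor of 0.117 to 0.188 CPM. That alone does not show how much depth limits them. Zfp36, with 251 to 397 counts per library, and Zfp36l1, with 478 to 953, had the lowest counts. Their counting error was not separated from the spread between cultures, which with n = 3 is itself poorly known.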

Other observations

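The nearest patterns over the 6 libraries, by the root mean square difference of log2 CPM centred on each gene's mean, were sought among 10114 protein-coding genes; this is a description of 6 values per gene. Nearest to Zfp36 were Rnf220 (0.0168) and Sgta (0.0209), to Zfp36l1 Insig1 (0.0149), and to Zfp36l2 C77080 (0.0308) and Mcm4 (0.0310). Nearest to Khsrp were Abl1 (0.0188) and Col6a1 (0.0212), to Hnrnpd Acsl5 (0.0162) and Pkm (0.0212), and to Elavl1 Nop14 (0.0138) and Rap1a (0.0247). Nearest to Rc3h1 were Taf6 (0.0145) and Pkn2 (0.0199), and to Rc3h2 Rfwd3 (0.0171) and Dlg1 (0.0221). Zc3h12a had the most distant neighbours of the 9, Rrad (0.0451) and Leng9 (0.0501). Among the 9 genes themselves the closest pairs were Zfp36l2 with Rc3h2 (0.0697), Zfp36l2 with Khsrp (0.0824) and Elavl1 with Hnrnpd (0.0858).

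Genes that carry the nonamer of the Zfp36 family were grouped by its number after the data were seen, and no test was made. Of 1054 tested genes with 1 or more nonamers, 15.4% were called higher and 38.7% lower (median log2 fold change −0.23), against 26% and 25.8% of the 12491 genes with a 3′ UTR (median −0.01). Their 3′ UTRs were longer, with a median of 2361 bases against 1222. With the transcript length offset 23.7% were higher and 14% lower (median 0.04), against 24.2% and 12.5% (median 0.07). With the offset, 20.8, 34.5 and 23.1% of the genes with 1, 2 and 3 nonamers were higher, and 15.2, 11.5 and 11.5% lower. Of 36 genes with 4 or more nonamers, 30.6% were higher and 16.7% lower (median 0.03), and with the offset 47.2% and 2.78% (median 0.44). The share called higher thus did not rise steadily with the number of nonamers. The class with 4 or more includes Elavl1 and, among the targets, Cxcl2 and Csf2, which had enough counts to be tested only through its LPS libraries.

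In RefSeq promoter windows (250 bases before to 50 after the start, both strands), present for 8 of the 9 genes, the NF-kB motif was found in 0 of 8, where 8.46% of 32851 promoters held it. The AP-1 motif TGANTCA was in those of Rc3h1 and Zfp36l1 (7.81% of all), the CArG box in those of Hnrnpd and Zfp36 (1.63%), and TATAAA in that of Zfp36l1 (13.6%). No match says only that these letters are not in this window.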
